A study of Mus musculus with 2 samples.

Results

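Periderm and suprabasal (P/S) cells lacking transcripts of the contractile genes Tagln and Acta2 were examined in the E12.0 mouse mandibular epithelium. The P/S cells were chosen by their own transcripts. They are the cells in which unique molecular identifiers (UMIs, each standing for 1 captured transcript) of Ppl, Pkp1, Grhl3 and Nebl summed to at least 3, with no UMI of Tagln or Acta2. Of 11355 cells kept in the E12.0 library, 360 (3.17%) met this rule, out of 24099 kept cells in both libraries of the study. They were set against 8921 comparison cells of the same library that had no UMI of any of the 4 rule genes. The 2 groups had nearly equal depth, with a median of 6021 UMIs and 2722 genes per P/S cell and 6279 UMIs and 2752 genes per comparison cell.

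The E12.0 library was made from GFP-positive cells sorted from mandibles of 6 K14Cre;R26mT/mG embryos of 1 litter. In these mice Cre recombinase under the Keratin 14 promoter switches a membrane reporter from tomato to GFP, so the sort enriched for surface epithelium. The other library was made without sorting from entire mandibular arches of 8 E9.5 embryos of the same genotype. With pooled embryos and 1 library per stage there is no replicate and no treated or control group, so no test between samples was possible. All intervals below are exact 95% intervals and cover counting error only. Levels are given as CPM, the UMIs of a gene per 1000000 UMIs of a group of cells.

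Periderm covers the surface of embryonic skin and mouth as a transient, non-stick lining that is shed once the epidermal barrier forms. Suprabasal cells are keratinocytes that have left the basal layer, the compartment of dividing progenitors. Such cells usually lose contact with the basement membrane, strengthen desmosomes and tight junctions, and switch on Notch signalling. Grainyhead-like factors, Ovol1 and Zfp750 are known regulators of this program in skin.

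Because the rule used Ppl, Pkp1, Grhl3 and Nebl, their levels only describe the selection. Ppl, which encodes the cornified envelope linker periplakin, had a UMI in 306 of the 360 cells (85.0%) and a level of 338 CPM. Pkp1, a desmosomal plakophilin, had a UMI in 66.9% of the cells at 213 CPM. The actin-associated Nebl was seen in 53.6% at 187 CPM, and the transcription factor Grhl3 in 48.9% at 115 CPM. Of the P/S cells, 37 held 1 of the 4 transcripts, 140 held 2, 133 held 3 and 50 held all 4. Without its Ppl UMIs 123 of the cells (34.2%) would have missed the threshold, as would 67 without Pkp1, 58 without Nebl and 47 without Grhl3. The median was 5 rule UMIs per cell and the highest 28. Just inside the threshold were 104 cells with 3 rule UMIs, and just outside it 300 cells with 2, all without Tagln or Acta2 UMIs.

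Each rule gene was also measured in cells chosen by the other 3. Left out of its own selection, Ppl was at 327 CPM in 237 cells against 12.7 CPM, a log2 ratio of 4.69 (4.53 to 4.84). Pkp1 was at 199 against 4.90 CPM (log2 ratio 5.34). Grhl3 was at 95.8 against 4.36 CPM (4.46) and Nebl at 168 against 10.9 CPM (3.95). Nebl had the smallest of the 4 ratios, with an interval of 3.76 to 4.14. The study had named all 4 genes for P/S cells of this same library. High ratios were therefore known beforehand, and they only describe the selection.

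Of the label's markers, Zfp750 and Notch1 took no part in the rule. Zfp750, a zinc finger factor of terminal epidermal differentiation (chr11:121510978-121519333, GRCm38, minus strand), was at 110 CPM (97.4 to 124) in P/S cells and at 1.09 CPM (0.838 to 1.38) in comparison cells. A Zfp750 UMI was found in 45% of P/S cells and in 0.695% of comparison cells. Notch1, the receptor (chr2:26457903-26516663, minus strand), was at 534 CPM (506 to 563) and 44.2 CPM (42.6 to 45.9), with a UMI in 84.2% and 22.6% of cells. At an equal 4000 UMIs drawn per cell, for which 34 P/S and 768 comparison cells were too shallow, the shares for Zfp750 were 31.0% and 0.405%. A Zfp750 and a Notch1 UMI occurred together in 153 P/S cells (42.5%) and in 29 comparison cells (0.325%). Both markers were far above the comparison cells, on the side that the label gives them. The study had already shown Zfp750 and Notch receptors in the P/S cells of this library. These levels therefore describe the P/S cells and are no independent check of the label.

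Markers of other cells were at or near 0 in the P/S cells. The 8 mesenchymal genes summed to 30 UMIs, or 11.8 CPM against 16.5 CPM in comparison cells, with Col1a2 the most abundant and 3 of them (Col3a1, Twist1 and Lum) at 0. The 4 endothelial genes summed to 1.97 CPM, all from Pecam1, while Cdh5, Kdr and Emcn were at 0. The 4 immune genes held 1 UMI and the muscle genes Myod1 and Myog none. The 6 hemoglobin genes were listed at 0 in every barcode of the E12.0 library, so they could not show blood cells there. Epithelial genes were abundant, with Epcam in 91.7% and Krt14 in 88.9% of P/S cells. Scrublet called 38 P/S cells (10.6%) doublets, against 4.47% of comparison cells. The share of called doublets thus moved with the selection, and values without these cells are given where they changed a count or a ratio by more than 1.5 times. Sex-linked transcripts were shared out alike: 32.5% of P/S and 32.1% of comparison cells had an Xist but no Y-linked UMI, and 42.8% and 43.0% had the reverse.

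Across 7146 genes with at least 20 CPM in either group, rule genes excluded, 235 (3.29%) were at least 2-fold higher in P/S cells and 45 (0.63%) at least 2-fold lower. A gene that reached 20 CPM in P/S cells alone was bound to be higher there, though not by 2-fold. There were 410 such genes, and 146 of them were among the 235 higher genes. Among the 6736 genes with at least 20 CPM in comparison cells, 89 (1.32%) were at least 2-fold higher and 45 (0.668%) lower. Of these lower genes, 29 were under 20 CPM in P/S cells. The interval of the ratio lay above 0 for 16.3% and below 0 for 21.5% of the 6736 genes, and for 7.95% and 6.30% of all 27992 genes in the file at any level. These shares stand as the background to the list counts, and the gene lists below are counted against comparison cells on this floor. Most of the 27992 genes were below 20 CPM, where few UMIs make wide intervals. The 7.95% is thus a low background for lists of expressed genes, for which 16.3% is the closer one. The median log2 ratio of all genes compared was -0.02. Rhov, which encodes an atypical small GTPase (chr2:119269201-119271272, minus strand), led the higher genes. It was at 51.2 CPM (42.8 to 60.8) in P/S cells and 0.150 CPM (0.0687 to 0.285) in comparison cells, a 341-fold difference that rested on 130 and 9 UMIs. A Rhov UMI was found in 23.1% of P/S cells and 0.101% of comparison cells. The other genes in this paragraph are taken in order of ratio among genes at 50 CPM or more in either group, in which Zfp750 (log2 ratio 6.66) came next. Ovol1, a repressor of the progenitor state, was at 64.6 against 4.36 CPM (3.89), and Notch1 followed (3.59). Nectin4, an adhesion molecule of adherens junctions, was at 361 against 32.6 CPM (3.47) and had a UMI in 78.3% of P/S cells. The zinc finger factor Casz1 (3.39), the desmosomal cadherin Dsc2 (3.19), the nonmuscle myosin heavy chain Myh14 (3.09) and Notch3 (2.99) followed. Palm3 (2.94), the phospholipid-binding annexin Anxa1 (2.88), Hebp2 (2.67), the junctional adaptor Lmo7 (2.57) and Arap2 (2.56) also belonged to the 15 largest ratios on this floor, of which 14 are named here. The choice of the largest ratios fixed their size, so they only describe the P/S cells.

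**Figure D1:**
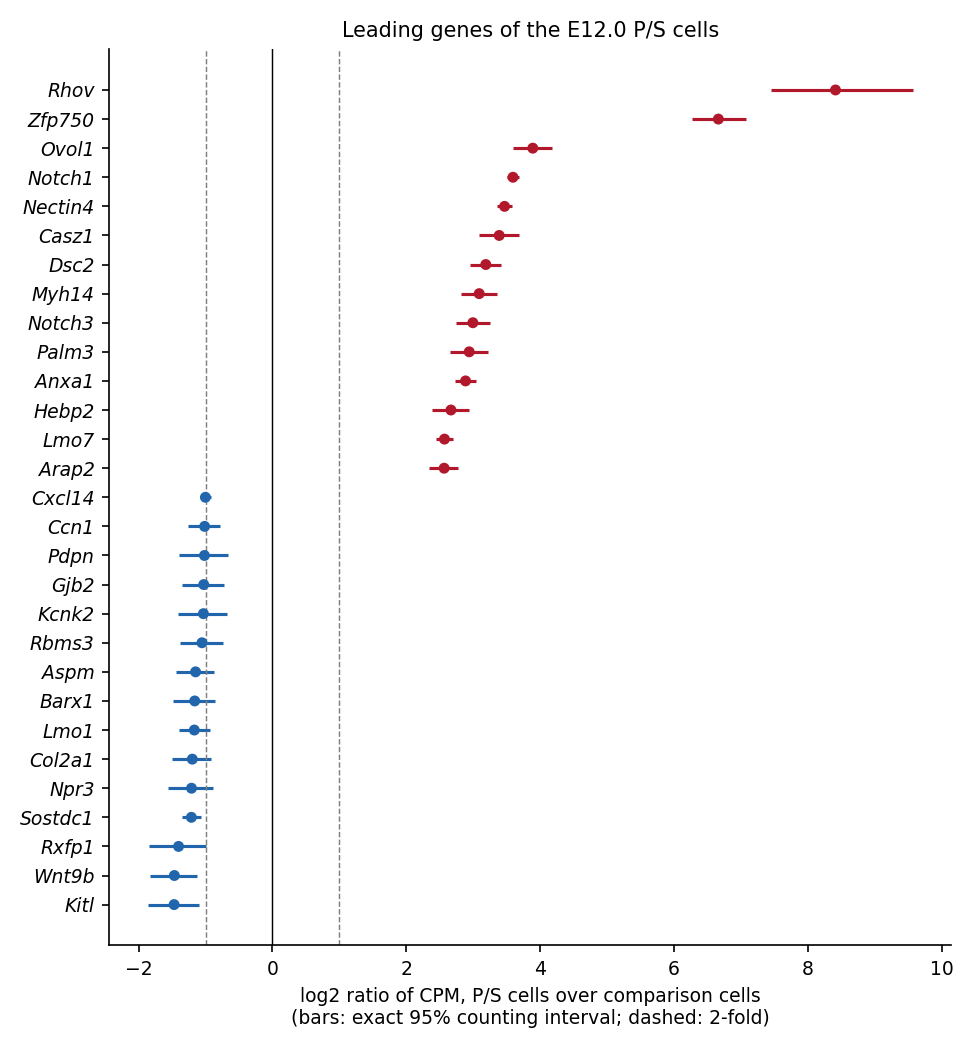
Log2 ratio of CPM in the 360 P/S cells over the 8921 comparison cells (x axis) for 14 of the 15 genes with the largest ratio and the 15 with the smallest (y axis), among genes at 50 CPM or more in either group, with exact 95% counting intervals as bars and dashed lines at 2-fold. The higher genes reached a log2 ratio of 8.41 (Rhov), whereas the lower genes stayed between -1.47 (Kitl) and -1 (Cxcl14).

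The lower genes differed much less. Kitl, the ligand of the Kit receptor, was at 23.2 CPM (17.7 to 30.0) in P/S cells and 64.4 CPM (62.4 to 66.5) in comparison cells, a log2 ratio of -1.47. The Wnt ligand Wnt9b was at 27.2 against 75.1 CPM (-1.47) and the relaxin receptor Rxfp1 at 19.3 against 51.1 CPM (-1.40). Sostdc1, a secreted antagonist of BMP and Wnt signalling, was at 156 against 360 CPM (-1.21) and had a UMI in 40.3% of P/S and 68.5% of comparison cells. The natriuretic peptide receptor Npr3 (-1.21), Col2a1 (-1.20), Lmo1 (-1.17), the homeobox gene Barx1 (-1.16) and the spindle gene Aspm (-1.15) came next. Rbms3, Kcnk2, Gjb2, Pdpn, Ccn1 and Cxcl14 lay between -1.05 and the 2-fold line at -1. For 12 of the 15 the interval crossed the 2-fold line. The set of lower genes depended on the choice of cells. Of the 45, 43 were also at least 2-fold lower without called doublets, 30 in cells chosen without Ppl, 29 among cells with a Y-linked and no Xist UMI, 23 at 5% mitochondrial UMIs and 1 when 2 rule UMIs sufficed.

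The named gene lists are described in the order of their roles. Several hold genes that the study had named for P/S cells of this same library, among them Grhl1, Jup, Cldn4 and Notch targets. Counts over these lists therefore describe the P/S cells and are no independent support. Among keratinocyte transcription factors, 2 of the 10 with 20 CPM in comparison cells were at least 2-fold higher and none lower, with a median log2 ratio of 0.58 beside -0.04 for all genes on this floor. These were the Krüppel-like factors Klf7 (1.70) and Klf5 (1.27). Of the 10 intervals, 6 lay above 0 and 1 below (16.3% and 21.5% of all genes on this floor). A further 5 genes reached 20 CPM in P/S cells alone, and counted at any level 14 of the 20 listed genes had an interval above 0 (7.95% of all genes). Besides Zfp750 and Ovol1, the 5 included Grhl1, a relative of Grhl3, at 24 against 3.89 CPM (2.63). Cebpb was at 32.7 against 11.4 CPM (1.52). By contrast Grhl2, the family member found across simple epithelia, was at 82.3 against 74.7 CPM, and its interval of -0.07 to 0.34 included 0. Trp63, the master regulator of basal keratinocytes, was at 193 against 258 CPM (-0.42, interval -0.55 to -0.29). Trp63 had a UMI in 62.8% of P/S cells.

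Grainyhead-like factors bind AACCGGTT or the looser AACNNGTT, and each of these reads the same on both strands, so that every AACCGGTT is also an AACNNGTT. RefSeq promoters of build GRCm38.p6, from 250 bases before to 50 after each start, were matched by symbol for 170 of the 235 higher genes. The looser motif was found in 12 of these (7.06%), in 241 of 5695 compared genes with a promoter (4.23%), and in 4.20% of all 32851 windows of this length. AACCGGTT was found in 2 of the 170 (1.18%), in 0.439% of compared genes and in 0.146% of all windows. Among the 33 lower genes with a promoter, the looser motif was found in 2 (6.06%) and AACCGGTT in 0. Of the named and list genes, 7 of 169 held the looser motif. Shown first are the promoter stretches of 2 list genes, Sfn and the tight junction gene Cgn, and then those of the 2 genes with the full motif, Ldlrad3 and Bmf, which were picked after their values were seen. Capitals mark the motif, and each stretch is written 5′ to 3′ along the gene.
Sfn: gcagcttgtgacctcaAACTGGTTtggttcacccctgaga
Cgn: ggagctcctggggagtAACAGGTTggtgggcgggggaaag
Ldlrad3: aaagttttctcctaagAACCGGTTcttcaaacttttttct
Bmf: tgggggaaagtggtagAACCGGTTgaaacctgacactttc
They lie on the minus strand at chr4:133602329-133602368 for Sfn, chr3:94786488-94786527 for Cgn, chr2:102186668-102186707 for Ldlrad3 and chr2:118544657-118544696 for Bmf. The motif starts 184, 29, 231 and 93 bases before the annotated start, in that order. Their genes had log2 ratios of 2.08 (Sfn), 1.47 (Cgn), 1.32 (Ldlrad3) and 1.13 (Bmf). A match in these letters is not a bound site.

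Desmosomal genes were higher throughout. Of the 7 with 20 CPM in comparison cells, 4 were at least 2-fold higher, with a median log2 ratio of 1.21. All 7 intervals lay above 0 (16.3% of all genes on this floor). At any level all 11 listed genes had an interval above 0 (7.95% of all genes). Dsp, encoding desmoplakin, was at 1850 against 735 CPM (1.33) and had a UMI in 99.2% of P/S cells. The desmosomal cadherin Dsc3 was at 312 against 76.8 CPM (2.02), plakoglobin (Jup) at 202 against 58.4 CPM (1.79) and envoplakin (Evpl), the partner of periplakin, at 62.6 against 11.1 CPM (2.50). Pkp4 (0.23), Pkp3 (0.64) and Dsg2 (0.91) stayed under 2-fold.

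Of 7 tight junction genes with 20 CPM in comparison cells, 4 were at least 2-fold higher, with a median log2 ratio of 1.04. Of these 7 intervals, 6 lay above 0 and none below (16.3% and 21.5% of all genes on this floor). A further 6 genes reached 20 CPM in P/S cells alone, and at any level 14 of 18 intervals lay above 0 and none below (7.95% and 6.30% of all genes). Among the barrier claudins, Cldn23 was at 20.1 against 0.551 CPM (5.19) and Cldn3 at 37.4 against 1.35 CPM (4.79), while Cldn7 was at 156 against 30.3 CPM (2.36) and Cldn4 at 80.0 against 17.5 CPM (2.19). Occludin (Ocln) was at 45.3 against 4.51 CPM (3.33) and tricellulin (Marveld2) at 44.9 against 4.71 CPM (3.25). The scaffold Tjp1 (0.91) and Lsr (0.06) differed less. Adherens junction genes differed less, with 2 of 9 at least 2-fold higher, 6 intervals above 0 and 1 below (1.32%, 16.3% and 21.5% of all genes). The 2 were Nectin4 and E-cadherin (Cdh1), at 267 against 93.1 CPM (1.52). Nectin1 (0.82), the catenin Ctnnd1 (0.58), Nectin2 (0.52) and the nectin-binding Afdn (0.52) were higher by less. The catenins Ctnnb1 (0.05) and Ctnna1 (0.09) had intervals that included 0, and P-cadherin (Cdh3), typical of basal cells, was at 65.0 against 83.5 CPM (-0.36).

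Among keratins of simple epithelia and periderm, 2 of the 4 with 20 CPM in comparison cells were at least 2-fold higher (1.32% of all genes). A further 2 reached 20 CPM in P/S cells alone. Krt6a, 1 of the latter, was at 45.3 CPM against 0.367 CPM (log2 ratio 6.95), with a UMI in 14.7% and 0.213% of cells. Reads that Krt6a shares with its near-identical neighbour Krt6b may not have been assigned to either, so its level is uncertain. Krt17 was at 100 against 22.8 CPM (2.13), Krt19 at 44.9 against 14.1 CPM (1.67) and Krt8 at 124 against 42.8 CPM (1.54). The basal keratins were not lower. Krt14 was at 1082 against 651 CPM (0.73), Krt5 at 863 against 481 CPM (0.84) and Krt15 at 314 against 290 CPM (0.11). Of 19 genes of spinous and cornified layers only 3 reached 20 CPM, and 7 had no UMI in P/S cells, among them Ivl (involucrin), Flg (filaggrin) and Cnfn. Sfn, encoding the 14-3-3 protein stratifin, was at 589 against 139 CPM (2.08). Below the floor, 4 genes had intervals above 0, namely the galectin Lgals3 at 14.2 against 0.167 CPM (6.41), Krtdap at 6.30 against 0.0668 CPM (6.56, 4.93 to 8.60) and the transglutaminases Tgm1 at 9.85 against 0.317 CPM (4.96) and Tgm3 at 3.55 against 0.150 CPM (4.56). The spinous keratin Krt10 was at 30.7 against 25.5 CPM, with an interval of -0.08 to 0.60 on the log2 scale. No interval of the list lay below 0.

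**Figure D2:**
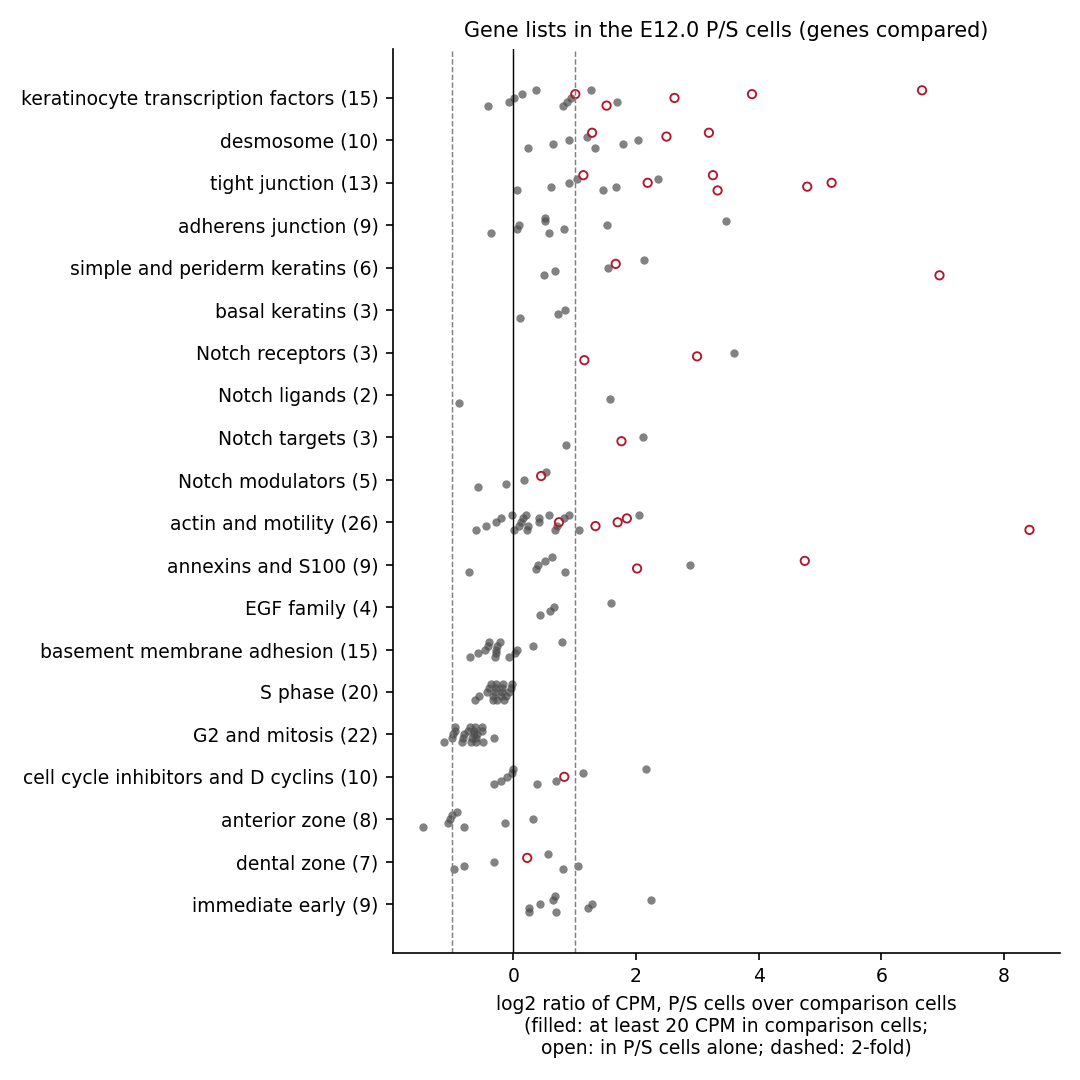
Log2 ratio of CPM in P/S cells over comparison cells (x axis) for every compared gene of 20 lists (y axis, number of genes in brackets), with dashed lines at 2-fold. Filled points are genes with at least 20 CPM in comparison cells and open points genes that reached 20 CPM in P/S cells alone, such as Cldn23 (5.19), while all 22 genes of G2 and mitosis lay below 0.

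The Notch pathway was examined from receptors to targets. Beside Notch1, Notch3 was at 69.3 against 8.70 CPM (2.99) and Notch2 at 42.6 against 19.1 CPM (1.16), both past 20 CPM in P/S cells alone. Of the ligands, Jag1 was at 132 against 44.3 CPM (1.58), whereas Jag2 was at 32.7 against 60.4 CPM (-0.89), and their intervals lay on opposite sides of 0. Dll1 and Dll4 were under 3 CPM in both groups. Among targets, the feedback inhibitor Nrarp was at 95.7 against 22.1 CPM (2.11), Hey1 at 41.4 against 12.2 CPM (1.76) and Hes1 at 166 against 91.5 CPM (0.86). Hes5 was at 12.2 CPM, below the 20 CPM floor, and at 0.0501 CPM in comparison cells. None of 4 modulators with 20 CPM in comparison cells passed 2-fold, and Rbpj, the DNA-binding partner of the receptors, was at 92.6 against 101 CPM with an interval of -0.31 to 0.07. Lfng, a glycosyltransferase that alters receptor response to ligands, was at 3.15 against 14 CPM, both below the floor.

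Genes of actin and motility were mixed. Of the 21 with 20 CPM in comparison cells, 2 were at least 2-fold higher, the median log2 ratio was 0.22, and 14 intervals lay above and 3 below 0 (16.3% and 21.5% of all genes). A further 4 were past 2-fold with 20 CPM in P/S cells alone. Apart from Rhov, the 6 past 2-fold were the kinase Limk2 at 185 against 44.7 CPM (2.05), Pdlim5 (1.85), Csrp1 (1.70), the myosin light chain Myl9 at 39.8 against 15.7 CPM (1.34) and ezrin (Ezr, 1.07). The study had already named Rhov, Limk2, Pdlim5, Csrp1 and Myl9 for P/S cells of this same library. Their place among the higher genes was therefore known beforehand and is no independent result. Rhoa was at 253 against 256 CPM. The 7 smooth muscle genes outside the rule all stayed below 20 CPM and summed to 27.6 CPM in P/S and 26.7 CPM in comparison cells. The rule had removed P/S cells with Tagln or Acta2 UMIs, whereas comparison cells with such UMIs were kept. In P/S cells with at least 2 of these UMIs the 7 genes summed to 46.7 CPM. The near-equal sums and the actin counts therefore hold only for this selection. Without such comparison cells, the median log2 ratio of the 26 actin and motility genes with 20 CPM in either group stayed at 0.42. Of the annexins and S100 genes, Anxa1, S100a14 (35.1 against 1.3 CPM, 4.75) and S100a16 (59.9 against 14.8 CPM, 2.02) passed 2-fold, the last 2 from below 20 CPM in comparison cells. In the EGF family only the receptor Erbb3 did, at 107 against 35.6 CPM (1.58), out of 4 compared.

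Genes of basement membrane adhesion leaned the other way without passing 2-fold. None of 15 was 2-fold different, the median log2 ratio was -0.28, and 9 intervals lay below and 2 above 0 (21.5% and 16.3% of all genes). The integrin Itga3 was at 42.9 against 69.8 CPM (-0.70), the hemidesmosomal collagen Col17a1 at 68.9 against 103 CPM (-0.57) and Dst at 412 against 569 CPM (-0.46). The cytolinker Plec was at 249 against 144 CPM (0.79).

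Cell cycle transcripts were lower but present. Of 22 genes of G2 and mitosis, all 22 had an interval below 0 (21.5% of all genes), with a median log2 ratio of -0.68. Only Ccnb2 was past 2-fold (21.7 against 47.3 CPM, -1.13). Mki67 was at 312 against 478 CPM (-0.62) and Top2a at 422 against 600 CPM (-0.51). At least 1 UMI of Top2a or Mki67 was found in 47.2% (42.0 to 52.5) of P/S cells and 63.6% (62.6 to 64.6) of comparison cells. S phase genes differed less, with a median of -0.27 and 12 of 20 intervals below 0 (21.5% of all genes). Of 9 inhibitors and D cyclins with 20 CPM in comparison cells, 2 were at least 2-fold higher, 4 intervals lay above 0 and 2 below (1.32%, 16.3% and 21.5% of all genes). Cdkn1a, encoding the cell cycle inhibitor p21, was at 159 against 35.5 CPM (2.17) and the stress gene Gadd45b at 81.6 against 37.1 CPM (1.14). The cyclins Ccnd1 (-0.32) and Ccnd2 (-0.20) were lower, while Cdkn1b (-0.11) and Cdkn1c (-0.01) had intervals that included 0. Immediate early genes, which also respond to tissue dissociation, were higher as well: 3 of 9 passed 2-fold (1.32% of all genes), and Egr1 was at 383 against 80.6 CPM (2.25). Their part in the other differences was not tested.

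Levels were also followed over the number of rule UMIs per cell, in 8224, 1458 and 300 cells with 0, 1 and 2 such UMIs and in P/S cells with 3 to 4 (158 cells), 5 to 9 (155) and 10 or more (47), all without Tagln or Acta2 UMIs. These bins are cut from the values that defined the P/S cells, so they describe the selection. Zfp750 went from 1.09 and 4.42 and 17.2 CPM outside the threshold to 54.2, 159 and 147 CPM inside it. Rhov was at 3.09 CPM in cells with 2 rule UMIs and at 21.8, 65.0 and 107 CPM in the 3 bins of P/S cells. Notch1 went from 44.5 CPM at 0 to 316, 706 and 733 CPM, and Nrarp from 22.0 to 53.3, 116 and 176 CPM. For each of these 4 genes, cells with 2 rule UMIs lay between cells with none and the P/S cells. The intervals of the 2 highest bins overlapped for all 4.

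**Figure D3:**
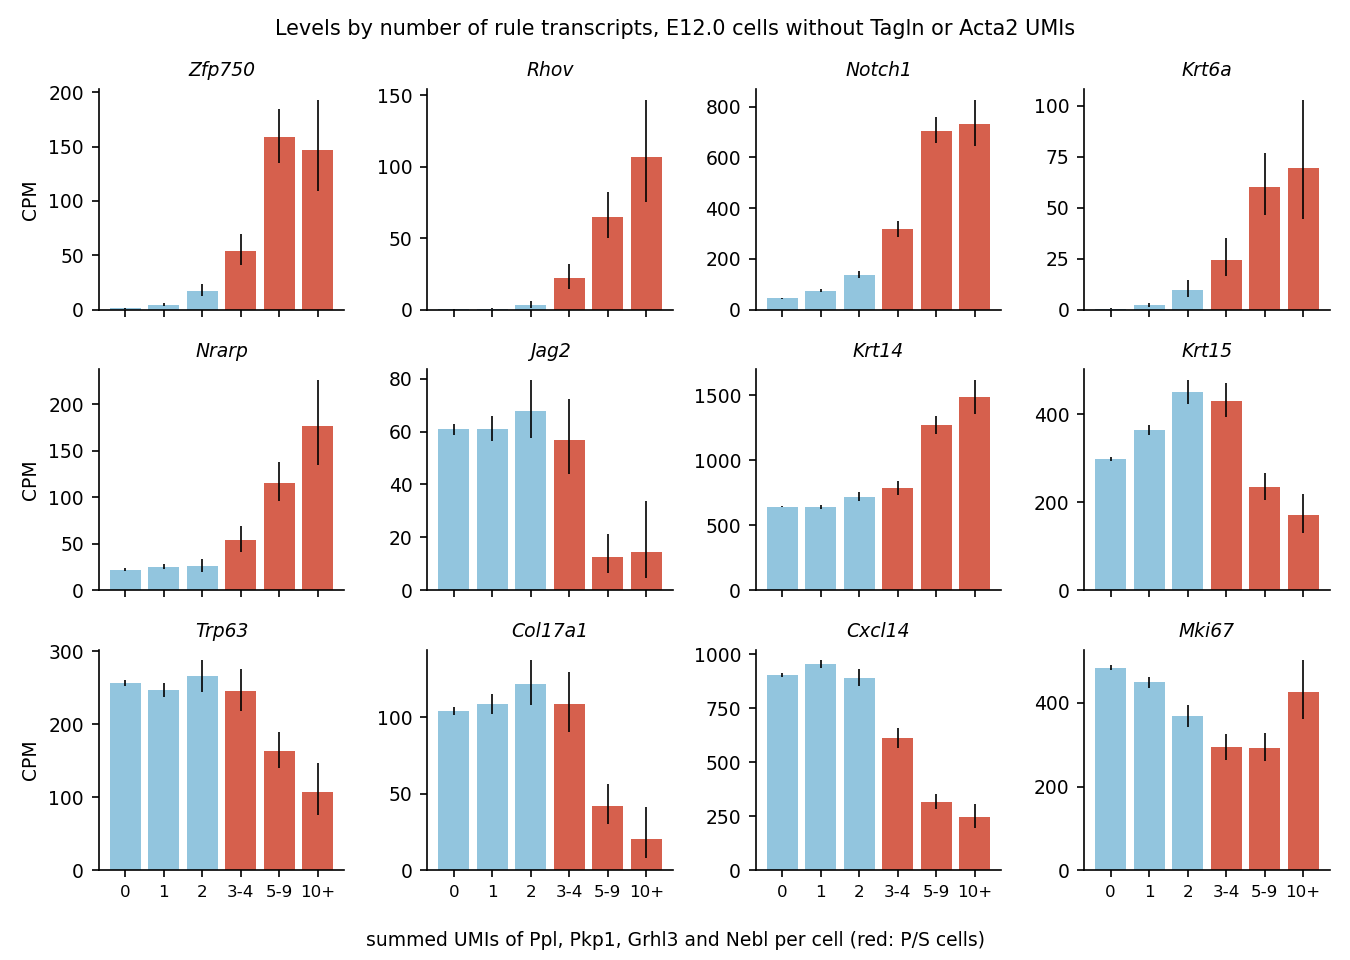
CPM (y axes, from 0, with exact 95% Poisson intervals) of 12 genes by the summed UMIs of Ppl, Pkp1, Grhl3 and Nebl per cell (x axes), in E12.0 cells without Tagln or Acta2 UMIs, with P/S cells in red. Zfp750, Rhov, Notch1 and Krt14 were higher in the cells with 5 or more rule UMIs than in those with 3 to 4, while Jag2, Trp63, Col17a1 and Cxcl14 were lower in the cells with 5 or more than in those with 3 to 4.

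Genes of the basal layer did not share 1 order over these bins. Trp63 was at 245 CPM in cells with 3 to 4 rule UMIs, close to the 257 CPM of cells with none, and at 163 and 107 CPM in the higher bins. Col17a1 was at 108 CPM in the first of these bins and at 42.0 and 20.2 CPM in the others. Itga3 (62.0, 30.6 and 17.3 CPM) and Jag2 (56.8, 12.4 and 14.4 CPM) followed the same order from the first to the second bin. Krt15 was highest in cells with 2 rule UMIs at 449 CPM, and at 431, 234 and 170 CPM in the P/S bins. In contrast Krt14 (786, 1272 and 1485 CPM) and Krt5 (616, 1009 and 1240 CPM) were higher in each further bin. Lgals3, a galectin of differentiating epithelium, was at 0.128 CPM in cells without rule UMIs and at 3.49, 19.1 and 34.6 CPM in the P/S bins. Mki67 showed no such order within the P/S cells, at 294, 293 and 427 CPM. Median depth differed among the 3 bins, at 6329.5, 5768 and 7325 UMIs, and called doublets made up 9.49%, 11% and 12.8% of their cells.

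Zone transcripts were used to describe the P/S cells along the oral-aboral axis. A cell was called anterior-marked by Cxcl14 and Tfap2b, dental-marked by Irx1 and Irx2 and posterior-marked by Col14a1, Rtl3 and Dmrt2. Dental and posterior marks also required at most 2 UMIs of Cxcl14 and Tfap2b. Of the P/S cells, 65 (18.1%, 14.2 to 22.4) were anterior-marked, against 39.5% (38.5 to 40.5) of comparison cells. Dental-marked cells made up 11.7% (8.54 to 15.4) and 7.48% (6.94 to 8.04), and posterior-marked cells 1.67% (0.614 to 3.59) and 5.04% (4.60 to 5.52). The remaining 247 P/S cells carried no mark. In none of the 3 zones did the interval of P/S cells overlap that of comparison cells. The levels of the marks stand beside these shares: Cxcl14 was at 442 against 884 CPM, Tfap2b at 230 against 433 CPM, Irx1 at 53.6 against 36.3 CPM and Irx2 at 41.4 against 23.7 CPM. The dental list as a whole was not higher, as its 7 genes summed to 293.1 against 294.9 CPM with 3 intervals above 0 and 3 below, down to Ntrk2 (-0.96). Fewer cells of a zone and less of its transcripts per cell cannot be told apart here.

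**Figure D4:**
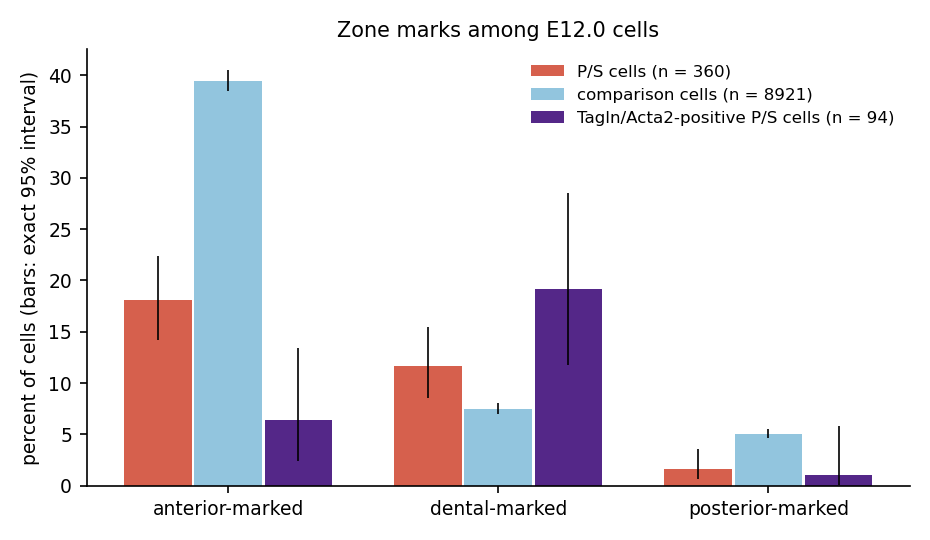
Percent of cells (y axis, from 0, with exact 95% intervals) that were anterior-marked, dental-marked or posterior-marked (x axis) among P/S cells, comparison cells and Tagln/Acta2-positive P/S cells. Anterior marks were found in 18.1% of P/S cells and 39.5% of comparison cells.

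Notch1 and Zfp750 were high in the P/S cells of either main zone. Notch1 was at 456 CPM in anterior-marked and 504 CPM in dental-marked P/S cells, against 60.7 and 17.5 CPM in comparison cells with the same marks. Zfp750 was at 80.9 and 156 CPM, against 0.838 and 0.770 CPM. Other genes followed the zone. Krt5 was at 1000 CPM in anterior-marked and 380 CPM in dental-marked P/S cells, Krt15 at 400 and 46.1 CPM and Krt17 at 49.3 and 230 CPM. The comparison cells had the same order for Krt5 (677 and 259 CPM), Krt15 (298 and 34.2 CPM) and Krt17 (10.8 and 62.3 CPM). Nebl, a rule gene, was at 203 CPM in anterior-marked and 54.7 CPM in dental-marked P/S cells, and Grhl3 at 63.1 and 150 CPM. Mki67 was at 223 and 568 CPM in these cells, against 395 and 623 CPM in comparison cells with the same marks.

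Shh is a signal of tooth placodes and initiation knots, and the study found it in taste bud precursors of the tongue too. It was at 68.9 CPM (59.1 to 80.0) in P/S cells and 13 CPM (12.1 to 14) in comparison cells, a log2 ratio of 2.40. This ratio was 1.53 in cells chosen without Pkp1 and 3.44 among cells with Xist and no Y-linked UMI. A Shh UMI was found in 47 P/S cells (13.1%) and 3.26% of comparison cells, and 3 or more in 6.39% and 0.930%. In dental-marked P/S cells Shh was at 118 CPM and seen in 26.2%, against 23.5 CPM and 8.40% of dental-marked comparison cells. The remaining 6 genes of the initiation knot list, among them Bmp2 (10.2 against 9.89 CPM), Dkk4 and Sp5, did not reach 20 CPM in either group. Of these 6, Proser2 at 12.6 against 4.98 CPM (1.34, 0.77 to 1.87) had an interval above 0 and none had one below. Shh itself passed 20 CPM in P/S cells alone. The study reports lower Irx1 in the initiation knot, so the dental mark can miss such cells. Whether P/S cells with Shh UMIs were dental or belonged to taste bud precursors was not tested.

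P/S cells with at least 2 UMIs of Tagln and Acta2 numbered 94, and a further 49 had exactly 1 and were left aside. They were deeper than the P/S cells without these UMIs (median 7689.5 against 6021) and 16% were called doublets. Of 7197 genes compared, 91 (1.26%) were at least 2-fold higher in the P/S cells without Tagln and Acta2 UMIs and 90 (1.25%) at least 2-fold lower, with a median log2 ratio of 0.00. Of the 91, 62 reached 20 CPM in the cells without these UMIs alone, and of the 90, 60 in the Tagln/Acta2-positive cells alone. With the floor in the Tagln/Acta2-positive cells, 29 of 6726 (0.431%) were higher and 90 (1.34%) lower. For several P/S transcripts the interval of the ratio included 0, with Zfp750 at 110 and 99.6 CPM (log2 ratio 0.14, -0.22 to 0.52), Ovol1 at 64.6 and 61.5 CPM (0.07, -0.39 to 0.56) and Nectin4 at 361 and 327 CPM (0.14, -0.06 to 0.34). Notch1 was at 534 and 459 CPM (0.22, 0.05 to 0.39). Of 11 desmosomal intervals, 6 lay below 0 and 0 above (9.20% and 6.02% of all genes), with a median of -0.26. Dsp was at 1850 and 2221 CPM (-0.26, -0.34 to -0.18). Of 11 tight junction intervals, 3 lay below 0 and 1 above (9.20% and 6.02% of all genes), with Tjp1 at 180 and 250 CPM (-0.47). Since these 94 cells were chosen for Tagln and Acta2, contractile genes that travel with them only describe the choice. Of 27 compared genes of actin and motility, 10 were at least 2-fold lower in the P/S cells without Tagln and Acta2 UMIs and none higher (1.34% and 0.431% of all genes). Myl9 was at 39.8 CPM (32.4 to 48.4) against 240 CPM (207 to 276), Csrp1 at 48.5 against 154 CPM (-1.66) and the calponin Cnn2 at 149 against 406 CPM (-1.45). Tropomyosin (Tpm1) was at 836 against 1958 CPM (-1.23).

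**Figure D5:**
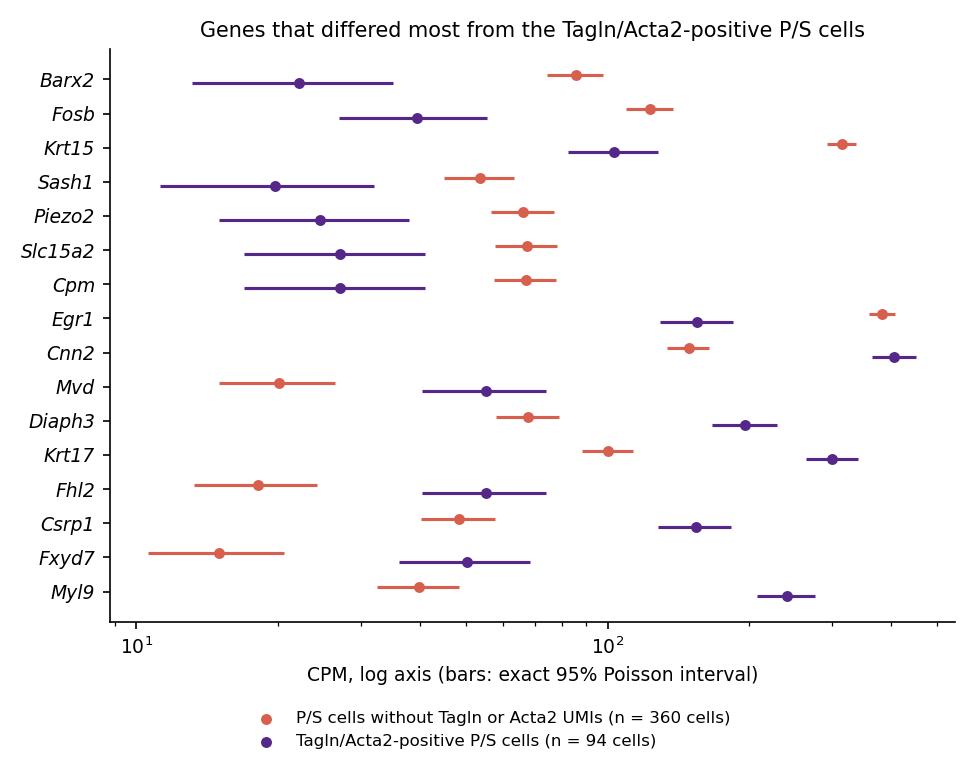
CPM on a log axis (x axis, with exact 95% Poisson intervals) of the 8 genes with the largest and the 8 with the smallest ratio (y axis), among genes at 50 CPM or more in either group, between the 360 P/S cells without Tagln or Acta2 UMIs and the 94 Tagln/Acta2-positive P/S cells. Myl9 was at 39.8 and 240 CPM and Krt15 at 314 and 103 CPM.

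The genes with the largest ratios were again taken among those at 50 CPM or more in either group. Outside the contractile genes, Krt17 was at 100 against 300 CPM (-1.58), the formin Diaph3 at 67.8 against 195 CPM (-1.53), Fhl2 at 18.1 against 55.3 CPM (-1.61), Fxyd7 at 15 against 50.4 CPM (-1.75) and the sterol synthesis gene Mvd at 20.1 against 55.3 CPM (-1.46). Higher in the P/S cells without Tagln and Acta2 UMIs were the homeobox gene Barx2 at 85.5 against 22.1 CPM (1.95), Krt15 at 314 against 103 CPM (1.60), Sash1 (1.45), the mechanosensitive channel Piezo2 (1.43), the peptide transporter Slc15a2 (1.32) and the carboxypeptidase Cpm (1.31). The immediate early genes Fosb (1.64) and Egr1 (1.31) were among them. Without called doublets the ratios of Barx2 and Krt15 were 3.18 and 2.67. The intervals of all 8 anterior zone genes lay above 0, with Cxcl14 at 442 against 188 CPM (1.23). Among them were 5 with 20 CPM in the Tagln/Acta2-positive cells (6.02% of all genes on that floor had an interval above 0). The median log2 ratio of the 7 that reached 20 CPM in either group, 2 of them in P/S cells without Tagln and Acta2 UMIs alone, was 1.09, and it was 2.52 without called doublets. Anterior marks were carried by 18.1% and 6.38% (2.38 to 13.4) of the cells, and dental marks by 11.7% and 19.1% (11.8 to 28.6). Genes of G2 and mitosis had a median log2 ratio of -0.66, and a Top2a or Mki67 UMI was found in 47.2% against 71.3% (61.0 to 80.1), at unequal depth. The zone and the cell cycle thus moved together with Tagln and Acta2, and their part in the other differences was not tested. Without called doublets the counts were 201 higher and 150 lower.

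The same rule was applied to the E9.5 library, which was unsorted and deeper (median 13460.5 UMIs per kept cell). It found 19 cells, all with an Epcam UMI, among 4816 kept cells with an Epcam UMI. Their rule UMIs were 44 of Ppl and 21 of Nebl, with none of Pkp1 or Grhl3. They held 1 UMI of Zfp750, 5 of Notch1 and none of Rhov or Ovol1. With 19 cells and different sorts the levels are only set side by side: Notch1 was at 15.8 CPM (5.13 to 36.9) in these cells and at 534 CPM in the E12.0 P/S cells. Within the E9.5 library, Notch1 was at 10.3 CPM in 4020 cells with an Epcam UMI and no rule UMI, and the interval of the log2 ratio was -1.01 to 1.85. Other transcripts had intervals above 0 there, among them Notch3 (0.94, 0.13 to 1.65) and Krt8 (0.76, 0.54 to 0.99). Those of Sfn, Krt14 and Cldn4 included 0. The cells that met the rule at E9.5 thus did so through Ppl and Nebl.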

How the data were processed

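Single cell libraries of the 10x Genomics type were analysed from the UMI counts that the authors deposited per gene and barcode, made with Cell Ranger and not normalized. The submitters' processing notes name version 2.0.0 and the builds mm10 and GRCm38, whereas the file headers name versions 3.1.0 and 6.1.2. The E12.0 matrix held 11663 barcodes and 78911671 counts. Cells with 200 to 5500 genes and at most 10% mitochondrial counts were kept, which left 77936364 counts. The libraries share 51 barcodes (0.437% of those at E12.0).

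Counts were summed over the cells of a group and scaled to CPM. Intervals are exact Poisson, Clopper-Pearson and conditional binomial intervals at 95%, and genes at 20 CPM or more in either group were compared. Lists were counted over genes with 20 CPM in comparison cells, a floor chosen after seeing the data. Genes were called different at a 2-fold ratio, without a test. The intervals hold no variation between samples. Doublets were called with Scrublet in Scanpy 1.11.5 (seed 1, score above 0.180), and thinning to 4000 UMIs used the same seed. Python 3.11.15, NumPy 2.4.6, SciPy 1.17.1, pandas 2.3.3 and matplotlib 3.10.9 were used. The ratio step was tested on simulated data. Gene positions are those of GENCODE M21, in which 353 genes of the E12.0 list had no identifier. Older symbols were replaced through Ensembl identifiers.

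The P/S cells, gene lists and alternatives were chosen with earlier results of these data known. Named were the 4 rule genes, Tagln, Acta2, the label's markers, genes of the lists, the 15 genes of largest and smallest ratio at 50 CPM or more, and 8 each way against Tagln/Acta2-positive P/S cells. Zone marks needed at least 5 UMIs of Cxcl14 and Tfap2b, or at least 2 of the dental or posterior genes, with at most 2 of Cxcl14 and Tfap2b. Some genes are not reported here.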

Additional observations from a re-analysis of the deposited data

How the results depend on the processing

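No paired analysis was possible because each stage has 1 library. The 240 ratios of named or list genes, pooled over both comparisons, were recomputed under settings that change cells or weights. Of 3664 recomputed values, 632 left the counting interval of the reported value and 96 changed sign. A gene reported in both comparisons counts in each. Among the 94 ratios past 2-fold, 311 of 1328 recomputed values left the interval, none changed direction and 1251 stayed past 2-fold. Of the 77 that did not, 30 arose when 2 rule UMIs sufficed.

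The counts of genes higher and lower in P/S cells, 235 and 45, became 115 and 1 with at least 2 rule UMIs, and 356 and 140 with at least 5. They were 361 and 186 among cells with Xist and no Y-linked UMI, 115 and 15 at a floor of 50 CPM, 89 and 45 at a floor of 20 CPM in comparison cells alone (chosen after seeing the data), 510 and 260 at 1.5-fold, 108 and 1 at 3-fold, and 761 and 554 at a ratio of 1.3 with a UMI in 15% of cells. Only the lower genes moved past 1.5 times in the next settings, to 82 with equal weight per cell, 93 after thinning to 4000 UMIs, 85 without called doublets, 87 at 5% mitochondrial UMIs, 75 without Ppl in the rule and 68 without Nebl. Against the Tagln/Acta2-positive P/S cells, 91 and 90 became 47 and 51 at 1 UMI of Tagln and Acta2, 201 and 150 without called doublets, 287 and 221 after thinning, 148 and 151 with equal weight, 26 and 30 at 50 CPM, 29 and 90 at 20 CPM in the Tagln/Acta2-positive cells (chosen after seeing the data), and 448 and 404 at 1.5-fold. At 3 UMIs of Tagln and Acta2, 159 were higher. The causes were not tested.

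The number of P/S cells was 111 at 5% mitochondrial UMIs, 660 with at least 2 and 202 with at least 5 rule UMIs, and 237 without Ppl in the rule. Zone shares stayed within their intervals without called doublets and, in comparison cells, after reweighting to the depth of P/S cells. Genes under 20 CPM in both groups entered no count of higher or lower genes, and 1 litter per stage limits every statement to these libraries.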
